A study of Arabidopsis thaliana with 18 samples.

Results

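The response of wild-type Arabidopsis thaliana seedlings to high ambient temperature was followed in Col-0, the reference wild type, by setting the 3 libraries labelled Col-0 28C against the 3 labelled Col-0 22C, which are 6 of the 18 libraries of the study. The members were all genes with enough counts to be tested in these 6 libraries, 17092 of the 33655 genes in the count table. Warmth below the range of heat stress makes a seedling lengthen its hypocotyl and petioles and lift its leaves, a growth programme called thermomorphogenesis. At its centre are phytochrome-interacting factors (PIFs), basic helix-loop-helix (bHLH) transcription factors that raise auxin synthesis and cell elongation genes. The photoreceptor phytochrome B restrains them and loses its active form faster in the warm. Helix-loop-helix (HLH) proteins such as HFR1, PAR1 and the HECATEs (HEC1 and HEC2) bind PIFs and keep them from DNA.

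Seedlings of all groups were grown on MS medium without sucrose after cold stratification, in continuous white light at 25 µmol, and were then kept for 24 hours at 22°C or moved to 28°C. The labels give an age of 5 days at the transfer and the methods of the study give another age, so the age is uncertain. The other genotypes were hec1hec2, lacking HEC1 and HEC2 by its label, and pifQ, a quadruple mutant of PIF1, PIF3, PIF4 and PIF5. They enter here only where the Col-0 response is set against theirs. RNA came from whole seedlings and was read by 3′ Tag-Seq, which sequences the 3′ end of each transcript, so that a longer transcript does not collect more tags. In such bulk samples fewer cells of a type and less RNA per cell cannot be told apart. The methods of the study describe the libraries of a group as biological replicates, and p-values measure the spread between them.

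The Col-0 libraries held between 3906616 and 4753935 counts at 22°C and between 3631558 and 4763859 at 28°C. A floor of 3 counts was between 6.30e-05% and 8.26e-05% of a library, for counting error only. Correlations of log2 levels across genes were between 0.977 and 0.983 within a temperature and between 0.933 and 0.943 across temperatures, and the first principal component, with 64.5% of the variance, separated the temperatures. Levels are given below as CPM, that is counts scaled to a total of 1000000 in tested genes after TMM normalization, in the order of replicates 1, 2 and 3. Genes rose or fell, here called changed, at a difference of at least 2-fold with a Benjamini-Hochberg adjusted p-value of edgeR's quasi-likelihood test (FDR) of at most 0.05. Log2 fold changes are 28°C over 22°C, with the standard error of the fit over 3 libraries against 3.

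At 28°C 593 genes rose (3.47% of those tested) and 722 fell (4.22%), together 7.69%. By the FDR alone 6098 genes differed (35.7%), of which 2881 were higher (16.9%) and 3217 lower (18.8%). Most of the difference was therefore under 2-fold. The median log2 fold change was 0.01 over all tested genes, 1.30 over those that rose and -1.25 over those that fell. A change of at least 2 on the log2 scale was reached by 103 genes that rose and 83 that fell, and one of at least 4 by 7 in each direction. The CPM of the groups did not overlap for 580 of the 593 genes that rose and 708 of the 722 that fell, where 45.2% of all tested genes had groups that did not overlap.

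**Figure D1:**
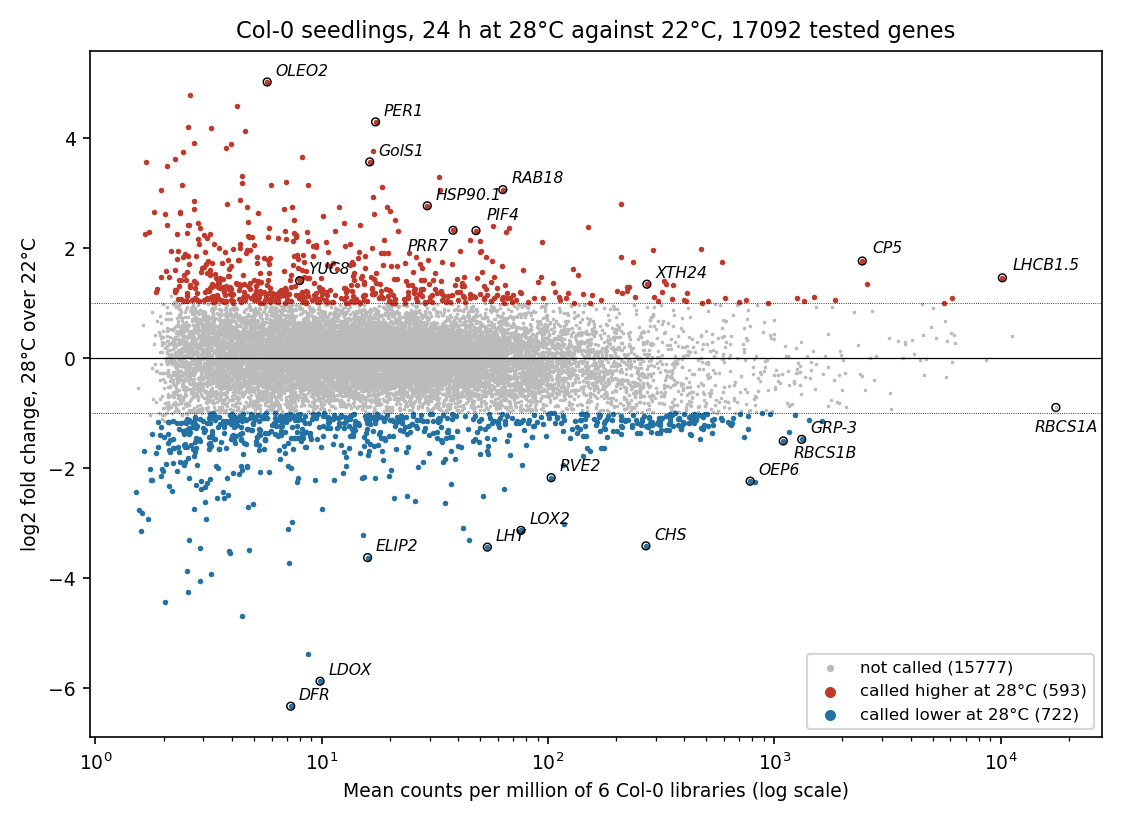
Log2 fold change of each tested gene at 28°C over 22°C in Col-0 (vertical axis) against its mean level in CPM over the 6 libraries (horizontal axis, log scale). Coloured points are the 593 genes that rose and the 722 that fell, and the grey points are the other tested genes, whose cloud is centred near the median of 0.01.

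Large shares of the counts were involved. Genes that rose held between 2.94% and 3.16% of all counts in the 22°C libraries and between 7.63% and 8.02% in the 28°C libraries. Genes that fell held between 9.10% and 9.32% at 22°C and between 3.99% and 4.25% at 28°C. The share of genes called was 10.9% of the 5766 with a mean under 10 CPM, 4.82% of the 9751 between 10 and 100 CPM, 13.7% of the 1469 between 100 and 1000 CPM and 14.2% of the 106 above.

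The growth programme was visible first in its transcription factors. Of the 6 PIF genes tested, PIF4 and PIF5 rose and none fell, with a list median of 0.34 on the log2 scale. PIF4 (AT2G43010), the PIF most closely tied to warmth in the literature, had 15.4, 17.7 and 15.0 CPM at 22°C and 81.5, 76.0 and 82.5 CPM at 28°C (log2 fold change 2.32, standard error 0.13, FDR = 3.6e-14). The lowest warm library lay several times above the highest cool one. PIF5 (AT3G59060) went from 44.5, 47.9 and 46.7 CPM to 109.8, 93.9 and 113 CPM (log2 fold change 1.19, standard error 0.11, FDR = 5.6e-10), again without overlap. PIF1, PIF3 and PIF7 had log2 fold changes of 0.34, -0.004 and 0.34 with FDRs of 0.15, 0.99 and 0.19, and PIF8 passed the FDR alone at -0.78 (called lower at -1.07 without 28C replicate 1). The share of all tested genes that rose, 3.47%, is the background for these counts.

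Of 4 tested HLH genes whose products hold PIFs off DNA, HFR1 and PAR2 rose (3.47% of all tested genes did), with a list median of 0.84. HFR1 (AT1G02340) had 3.14, 2.56 and 3.04 CPM at 22°C and 16.6, 12.7 and 13.7 CPM at 28°C (log2 fold change 2.30, standard error 0.25, FDR = 1.4e-08). All warm libraries were far above all cool ones. PAR2 (AT3G58850) had 13.6, 18.8 and 14.1 and then 30.5, 33.8 and 29.5 CPM (log2 fold change 1.002, standard error 0.15, FDR = 6.6e-06), a value on the 2-fold limit whose call was lost without 22C replicate 1 or 3 or 28C replicate 2 (0.92, 0.93 and 0.95), and under another normalization or filter. PAR1 passed the FDR alone at 0.68. HEC1 (AT5G67060) had 33, 64 and 34 counts at 22°C and 39, 47 and 68 at 28°C, overlapping groups, and a log2 fold change of 0.18 (FDR = 0.59). HEC2 had 3, 14 and 10 counts at 22°C and 5, 8 and 7 at 28°C and, like HEC3 and PIL1, was too low to be tested.

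Of the bHLH genes that promote growth, PRE1, a small HLH protein of the brassinosteroid and gibberellin responses, went from 2.62, 4.19 and 2.17 CPM to 10.5, 6.76 and 8.81 CPM (log2 fold change 1.54, standard error 0.29, FDR = 0.00012), and HBI1 passed the FDR alone at 0.68. The BEE genes, also tied to brassinosteroid, had log2 fold changes between 0.15 and 0.30 without passing the test. ATHB2, a homeodomain gene known from shade avoidance, went from 2.88, 3.26 and 1.95 CPM to 8.71, 5.68 and 6.35 CPM (log2 fold change 1.37, standard error 0.31, FDR = 0.00087). Neither PRE1 nor ATHB2 had overlapping groups. The relatives of ATHB2, HAT1 and HAT3, passed the FDR alone at 0.62 and 0.58.

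Auxin genes followed in a narrow set. YUC8 (AT4G28720), a flavin monooxygenase of the last step of auxin synthesis, had 6.54, 3.49 and 3.26 CPM at 22°C and 11.98, 10.6 and 12.1 CPM at 28°C (log2 fold change 1.41, standard error 0.25, FDR = 5.9e-05). The warm libraries were all higher, from counts of 25, 15 and 15 against 55, 39 and 59. YUC2 rose from 5, 7 and 14 counts to 19, 15 and 23 (log2 fold change 1.08, standard error 0.37, FDR = 0.023), a call that was lost under DESeq2 and without 22C replicate 1 or 2 or 28C replicate 3 (0.87, 0.94 and 1.01). TAA1, of the step before, fell from 14.1, 11.4 and 11.9 CPM to 7.62, 2.98 and 6.76 CPM (log2 fold change -1.06, standard error 0.24, FDR = 0.0011), which was lost without 22C replicate 1 or 28C replicate 2 (-0.97 and -0.79). The other 3 tested genes of auxin synthesis, YUC3, YUC6 and TAR2, did not pass the test.

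IAA29 (AT4G32280), an early auxin-response gene of the Aux/IAA repressor family, had 0.523, 1.86 and 1.74 CPM at 22°C and 8.71, 11.9 and 6.76 CPM at 28°C (log2 fold change 2.64, standard error 0.36, FDR = 9.6e-07). It was the Aux/IAA gene with the largest change of the 21 tested, and its groups lay far apart. IAA19 rose from 5.23, 4.19 and 1.52 CPM to 14.6, 8.39 and 15.6 CPM (log2 fold change 1.87, standard error 0.30, FDR = 1.2e-05) and IAA14 from 18.6, 14.9 and 18.03 CPM to 36.8, 34.4 and 35.02 CPM (log2 fold change 1.05, standard error 0.14, FDR = 9.2e-07), the latter not called without 22C replicate 2 (0.95). Without 28C replicate 2, 5 of the family rose. Of the 21 Aux/IAA genes tested with all 6 libraries, 3 rose and none fell (3.47% and 4.22% of all tested genes), with a median of 0.26. By the FDR alone 12 were higher and 1 lower (16.9% and 18.8% of all tested genes). GH3 genes, which conjugate auxin, gave no call among 5 tested (7.69% of all tested genes were called). GH3.5 came nearest at 0.98 (FDR = 1.7e-06) and was called without 22C replicate 2 or 3 (1.04 and 1.08).

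The promoters of YUC8 and IAA29 are shown here because both genes stand for the auxin branch and both are known PIF targets. They were read from the RefSeq assembly TAIR10.1 as the 250 bases before the annotated start, 5′ to 3′ on the strand of the gene, YUC8 at chr4:14192319-14192568 on the plus strand and IAA29 at chr4:15583082-15583331 on the plus strand. Capitals mark the motifs searched for on both strands, here the PBE-box CACATG, a second binding sequence of PIFs, in YUC8, starting 53 bases before the start, and the site II element TGGGCC, 225 bases before it, in IAA29. Neither window held the G-box CACGTG.
YUC8: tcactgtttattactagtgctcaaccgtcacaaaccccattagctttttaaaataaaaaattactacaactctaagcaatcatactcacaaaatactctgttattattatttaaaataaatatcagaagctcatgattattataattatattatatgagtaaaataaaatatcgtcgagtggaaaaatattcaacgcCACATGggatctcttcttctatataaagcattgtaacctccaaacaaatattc
IAA29: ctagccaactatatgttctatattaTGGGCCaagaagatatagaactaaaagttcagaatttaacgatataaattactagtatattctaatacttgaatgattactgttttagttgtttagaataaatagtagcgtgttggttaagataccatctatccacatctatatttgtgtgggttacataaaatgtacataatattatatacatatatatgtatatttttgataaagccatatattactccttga
A match is a description of letters and not a binding site, and the share of all promoters with each motif is given further down.

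SAUR genes, small auxin-up RNAs whose products promote the acid growth of cell walls, were the list with the most rises. Of 45 tested 18 rose and none fell (3.47% and 4.22% of all tested genes), with a median of 0.60. In fits of 5 libraries 1 SAUR gene fell without 22C replicate 1 or 3 or 28C replicate 1 or 2. SAUR19 (AT5G18010) had 1.57, 1.40 and 2.39 CPM at 22°C and 15.0, 8.93 and 11.7 CPM at 28°C (log2 fold change 2.71, standard error 0.30, FDR = 3.4e-08). SAUR22 went from 2.88, 3.02 and 1.74 CPM to 12.2, 9.74 and 12.1 CPM (log2 fold change 2.17, standard error 0.27, FDR = 2.7e-07). In both the warm libraries were all above the cool ones. SAUR23 and SAUR28 rose by 2.19 and 2.26 on the log2 scale, the latter from only 1, 6 and 3 counts. SAUR19 to SAUR24 are near-identical copies, so reads may be split between them as the counting placed them. Beside them SAUR21 had a log2 fold change of 0.02 and SAUR37 was lower by the FDR alone at -0.98.

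Cell wall genes went both ways. Among 50 tested expansins, which loosen walls, and xyloglucan endotransglucosylase/hydrolases (XTHs), which recut wall xyloglucan, 7 rose and 11 fell (3.47% and 4.22% of all tested genes), with a median of -0.20. EXPA2 went from 3.66, 2.33 and 0.869 CPM to 15.68, 12.7 and 10.04 CPM (log2 fold change 2.52, standard error 0.31, FDR = 2.3e-07), and XTH25 rose by 2.26. XTH26 fell from 3.66, 8.14 and 6.73 CPM to 0.871, 1.08 and 1.43 CPM (log2 fold change -2.43, standard error 0.40, FDR = 1.7e-05) and XTH20 by 2.31. The groups of EXPA2 and XTH26 lay apart in opposite directions. Of 9 root hair and endodermis markers, which had a median of 0.10, with 2 higher and 4 lower by the FDR alone, COBL9, EXPA18 and RHS19 of root hairs fell by 1.08, 1.34 and 1.38, whereas CASP5 of the endodermis rose by 1.13. COBL9 was not called without 22C replicate 2 or 28C replicate 2 (-0.91 and -0.81). The summed level of these 9 was between 116.5 and 157.7 CPM at 22°C and between 147.3 and 157.9 CPM at 28°C. The part of the makeup of the seedlings in these values was not tested. A list of 18 proline-rich extensin-like genes, drawn up from the annotation after values had been seen, had 12 tested, of which 8 fell and none rose (4.22% and 3.47% of all tested genes), with a median of -1.12.

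Other hormone pathways gave 1 call or none per list, where 7.69% of all tested genes were called. The calls were 8.33% of the gibberellin genes and 14.3% of the cytokinin-response genes. In lists this short, few calls do not set a pathway apart from all genes. GA3OX2, an enzyme of gibberellin synthesis, fell from 20, 28 and 18 counts to 7, 2 and 5 (log2 fold change -2.26, standard error 0.41, FDR = 6.7e-05), the only call among 12 gibberellin genes, while the growth repressor GAI passed the FDR alone at 0.89 (called at 1.04 without 22C replicate 3). None of the 13 brassinosteroid genes was called, with a median of 0.22, and CPD, a synthesis enzyme, passed the FDR alone at 0.90. The cytokinin-response regulator ARR7 fell by 1.48 (FDR = 0.00011), and of the other 6 type-A ARR genes tested ARR4 and ARR8 were lower by the FDR alone. In fits of 5 libraries 2 type-A ARR genes fell without 22C replicate 2 or 28C replicate 1 or 3. The 8 tested salicylic acid and immunity genes gave no call, with a median of 0.02.

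**Figure D2:**
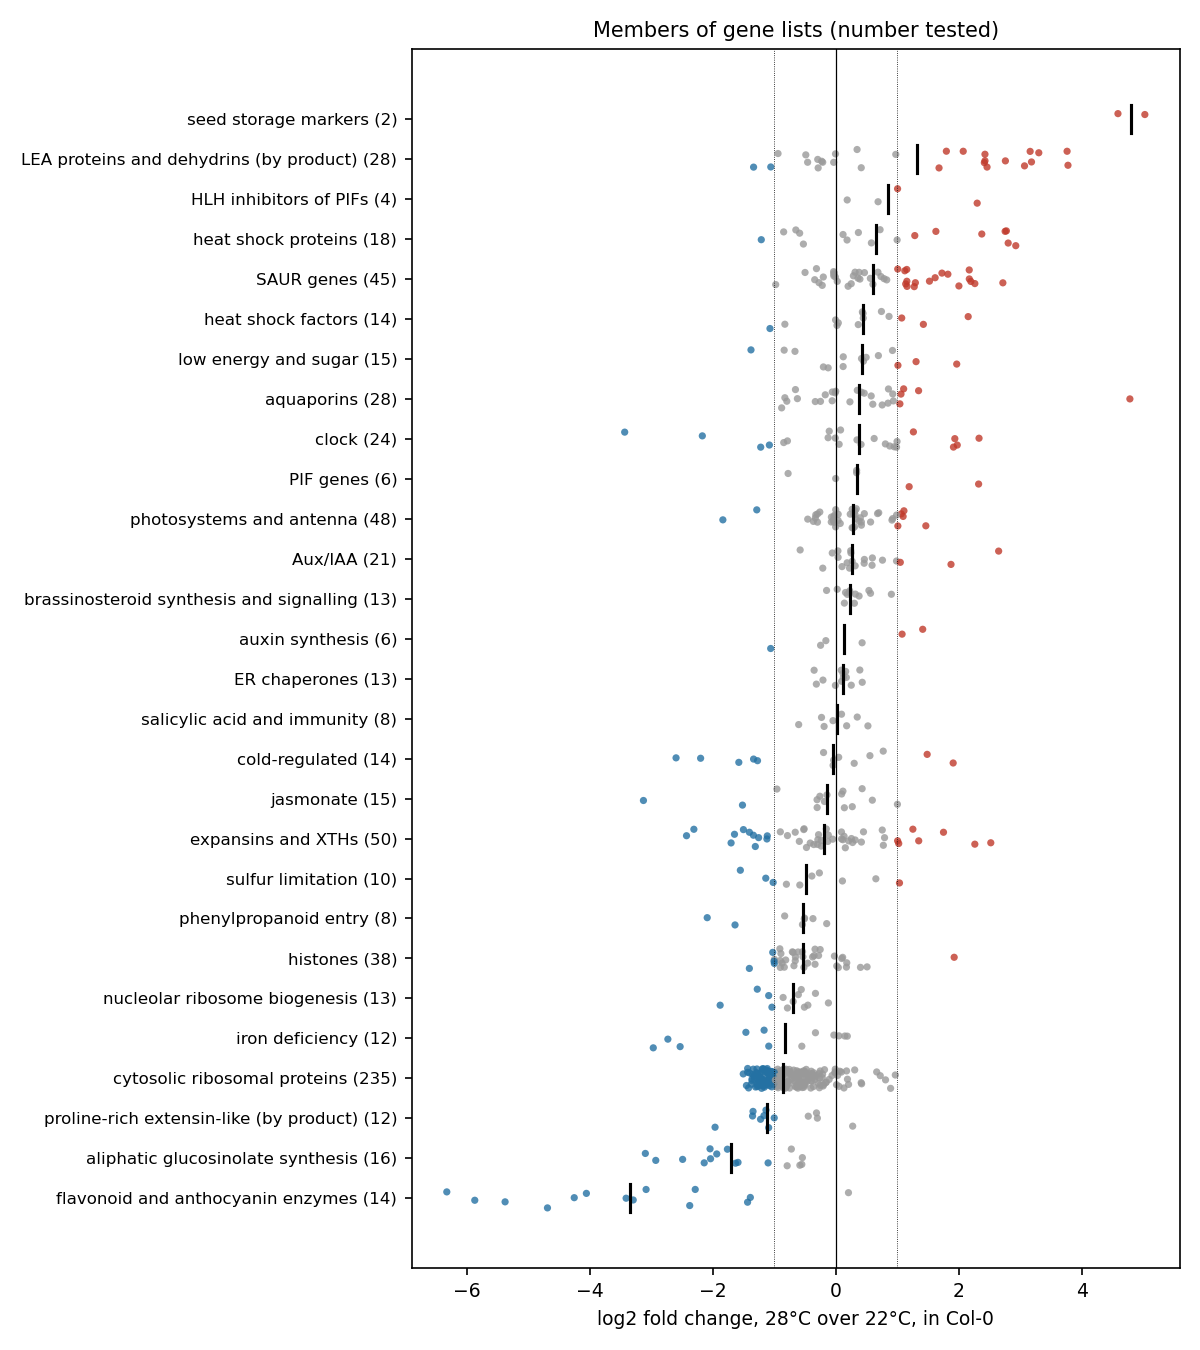
Log2 fold change at 28°C over 22°C of each tested member (points) of 28 gene lists, one row per list, with the list median as a black bar, genes that rose or fell coloured and the others grey. Flavonoid enzymes, aliphatic glucosinolate enzymes and ribosomal proteins lie left of 0 with medians of -3.35, -1.70 and -0.87, and SAUR genes lie mostly right of it with a median of 0.60.

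Among 18 genes of light and temperature sensing 5 were higher and 4 lower by the FDR alone (16.9% and 18.8% of all tested genes). Only HYH, a bZIP factor acting beside HY5, was called, falling from 50.5, 56.5 and 58.4 CPM to 17.9, 18.7 and 24.6 CPM (log2 fold change -1.43, standard error 0.14, FDR = 1.5e-09) with groups apart. HY5 itself, the chief promoter of light-grown development, was lower by the FDR alone at -0.84, and PHYA was higher by the FDR alone at 0.97 (called at 1.03 without 22C replicate 1 and 1.02 without 28C replicate 1). PHYB had a log2 fold change of -0.29 (FDR = 0.27). Of 15 B-box zinc finger genes, which act with HY5 and COP1, BBX24 rose by 1.22 and BBX20 fell by 1.26. BBX28 was also called without 28C replicate 2 or 3 (1.04 and 1.08). BBX19 was also called without 22C replicate 3 or 28C replicate 1 (-1.027 and -1.165).

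Clock genes moved in both directions. Of 24 clock genes tested, 5 rose and 4 fell (7.69% of all tested genes changed), with a median of 0.38. LHY (AT1G01060), a morning Myb repressor, had 114, 93.5 and 89.0 CPM at 22°C and 11.3, 7.85 and 7.99 CPM at 28°C (log2 fold change -3.43, standard error 0.15, FDR = 3.9e-16). CCA1, its partner, went from 51.8, 45.1 and 37.6 CPM to 23.96, 17.04 and 21.7 CPM (log2 fold change -1.08, standard error 0.15, FDR = 9.0e-07). The warm libraries of both were all below the cool ones. RVE2 and RVE8, Myb genes of the same family, also fell, by 2.17 and 1.22. PRR7 (AT5G02810), a daytime pseudo-response regulator that represses LHY and CCA1, went the other way, from 12.04, 14.2 and 11.7 CPM to 59.7, 60.3 and 70.2 CPM (log2 fold change 2.33, standard error 0.14, FDR = 2.1e-13). GI, an evening gene of clock and flowering, went from 8.64, 5.58 and 4.13 CPM to 24.2, 23.8 and 21.1 CPM (log2 fold change 1.93, standard error 0.21, FDR = 1.5e-08). Both had groups that did not overlap. RVE7, LNK1 and LNK4 rose by 1.97, 1.91 and 1.26, whereas TOC1 and ELF3 of the evening had log2 fold changes of -0.13 and -0.11 and passed no test. ELF4, also of the evening, was lower by the FDR alone at -0.79 (FDR = 0.00014), with groups that did not overlap. With total-count scaling, or without 22C replicate 2, 8 clock genes rose. Each group was sampled once, after 24 hours, so a level and a phase cannot be told apart. Of 7 flowering genes only SVP, a floral repressor, was called, rising by 1.15 (FDR = 3.3e-08), and FT was too low to be tested. In fits of 5 libraries 1 gene of this list fell without 22C replicate 1 or any one of the 28C replicates.

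A part of the heat shock system rose at this mild temperature. HSP90.1 (AT5G52640), the heat-inducible cytosolic HSP90, went from 8.11, 8.61 and 5.86 CPM to 51.0, 45.5 and 56.5 CPM (log2 fold change 2.77, standard error 0.16, FDR = 1.5e-13). HOP3, a co-chaperone that links HSP70 to HSP90, went from 3.14, 5.58 and 3.04 CPM to 26.1, 27.3 and 36.0 CPM (log2 fold change 2.92, standard error 0.22, FDR = 1.3e-11). Both rises were seen in every library. ROF2, a heat-inducible immunophilin, rose by 2.75 and HSA32 by 1.62, and the small heat shock protein HSP17.4A went from 2, 9 and 1 counts to 33, 22 and 34 (log2 fold change 2.80, standard error 0.43, FDR = 6.8e-06). In all 7 of 18 tested heat shock protein genes rose and 1 fell (3.47% and 4.22% of all tested genes), with a median of 0.65.

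The 1 heat shock protein gene that fell was the HSP70 gene AT3G09440, from 215, 227 and 238 CPM to 107, 90.09 and 95.8 CPM (log2 fold change -1.21, standard error 0.09, FDR = 2.3e-11), with no overlap. HSP70-1 and HSP90.2, the standing cytosolic forms, were lower by the FDR alone at -0.65 and -0.85. The summed level of all 23 listed genes, tested or not, was lower, between 2310 and 2475 CPM at 22°C and between 1623 and 1828 CPM at 28°C. Among 14 factors of the heat response, MBF1C, a coactivator, rose from 18.6, 19.1 and 12.6 CPM to 69.9, 66.6 and 84.6 CPM (log2 fold change 2.15, standard error 0.15, FDR = 1.8e-12), HSFA3 by 1.42 and DREB2A by 1.07. HSFA1E fell by 1.07, a call lost without 22C replicate 1 or 3 or 28C replicate 1 or 2 (-1.08, -0.90, -0.94 and -0.82) and under DESeq2. DREB2A was not called without 22C replicate 3 (0.91). None of 13 tested chaperones of the endoplasmic reticulum was called (7.69% of all tested genes were), with a median of 0.12 and values between -0.35 and 0.43.

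The flavonoid pathway, which makes flavonols and the red anthocyanins, had the lowest median of the lists. Of its 14 enzymes tested 13 fell and none rose (4.22% and 3.47% of all tested genes), with a median of -3.35. CHS (AT5G13930), chalcone synthase of the first step, had 466, 513 and 506 CPM at 22°C and 51.6, 43.3 and 44.4 CPM at 28°C (log2 fold change -3.41, standard error 0.10, FDR = 2.2e-20), a 10.6-fold lower level. F3H fell from 70.7, 77.0 and 77.3 CPM to 8.50, 9.47 and 8.60 CPM (log2 fold change -3.09, standard error 0.14, FDR = 7.4e-16) and FLS1, of the flavonol branch, from 75.1, 87.2 and 81.4 CPM to 13.1, 5.95 and 5.53 CPM (log2 fold change -3.29, standard error 0.18, FDR = 4.2e-14). The cool libraries were several times above the warm ones in all 3 genes. Late enzymes of anthocyanin synthesis came close to the floor. DFR had 55, 59 and 70 counts at 22°C and 1, 0 and 1 at 28°C, too few for a fold change. LDOX had 72, 65 and 111 and then 2, 1 and 1 counts (log2 fold change -5.87, standard error 0.38, FDR = 9.3e-13) and TT19, a glutathione transferase needed to bring anthocyanin to the vacuole, 86, 56 and 72 and 2, 0 and 3 (log2 fold change -5.38, standard error 0.41, FDR = 1.7e-11). The warm counts of LDOX and TT19 were also at or under the floor of 3, so their fold changes give a direction and not a size. SAT, which decorates anthocyanins, was the exception among the 14 enzymes at 0.20 (FDR = 0.40). The summed level of the 14 went from between 904.7 and 992.6 CPM to between 127.0 and 148.1 CPM.

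The regulators and the entry of the pathway moved in part. MYB111, an activator of flavonol synthesis, went from 26, 25 and 41 counts to 3, 2 and 3 (log2 fold change -3.51, standard error 0.41, FDR = 8.1e-08) and MYB75 (PAP1), the main activator of anthocyanin genes, from 10, 11 and 14 to 2, 1 and 2 (log2 fold change -2.77, standard error 0.56, FDR = 0.00025). MYBL2, a repressor of anthocyanin genes, rose from 17.01, 9.30 and 11.9 CPM to 42.3, 42.2 and 40.6 CPM (log2 fold change 1.72, standard error 0.16, FDR = 1.2e-09). These 2 activators and the repressor thus moved in opposite directions, with no overlap in any. The warm counts of MYB111 and MYB75 were at or under the floor of 3, so the sizes of their fold changes are uncertain. Of 6 tested regulators 1 rose and 2 fell (3.47% and 4.22% of all tested genes), with a median of -0.45. The other 3 did not pass the FDR, among them MYB12 at -0.51 (FDR = 0.18). At the phenylpropanoid entry, PAL1 fell by 1.64 and 4CL3, the ligase used for flavonoids, by 2.09. By the FDR alone 7 of the 8 entry genes were lower (18.8% of all tested genes were).

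Aliphatic glucosinolate synthesis, which builds mustard-oil defence compounds from methionine, fell without a riser. All 16 tested genes were lower by the FDR alone (18.8% of all tested genes were) and 11 fell by at least 2-fold, with a median of -1.70. BCAT4 (AT3G19710), of the first step of methionine chain elongation, went from 9.16, 2.79 and 7.82 CPM to 2.61, 0.812 and 0 CPM (log2 fold change -2.49, standard error 0.52, FDR = 0.00037). BAT5, the transporter of the chain-elongation acids into the plastid, fell by 2.93, IPMI1 by 3.097 and IMD1 by 2.14. CYP79F1 and CYP83A1, of the core structure, fell by 2.04 and 1.76. MYB28, the main activator, was lower by the FDR alone at -0.72. DESeq2 called 7 of the 16, and BCAT4 was not among them (log2 fold change -2.53, FDR = 0.123). The indolic branch, made from tryptophan, gave 1 call of 8 (7.69% of all tested genes were called), with a median of -0.37. The call was SUR1, a step shared with the aliphatic branch, which fell by 1.10 and was not called without 28C replicate 3 (-0.90). Sulfur supply genes were mixed, with LSU2, APR1 and APR2 falling by 1.55, 1.14 and 1.02 and LSU1 rising by 1.03. LSU1 and LSU2 are close relatives with opposite values, and LSU1 lost its call without 22C replicate 3 or 28C replicate 1 (0.78 and 0.81). APR2 lost its call without 22C replicate 2 or 28C replicate 1 or 2 (-0.98, -0.97 and -0.99).

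Of 12 tested iron-deficiency genes 6 fell and none rose (4.22% and 3.47% of all tested genes), with a median of -0.82. Without 22C replicate 2 or any one of the 28C replicates 10 or 11 fell, in fits that tested between 17390 and 17469 genes where the fit of 6 libraries tested 17092, so that these counts are not over the same 12 genes. NAS4, which makes the iron chelator nicotianamine, went from 10.5, 8.61 and 20.2 CPM to 1.74, 1.08 and 2.05 CPM (log2 fold change -2.97, standard error 0.35, FDR = 8.1e-08). AT1G47395, a member of this list whose product is annotated only as an uncharacterized protein, went from 24.3, 4.65 and 23.2 CPM to 2.83, 2.98 and 2.05 CPM (log2 fold change -2.73, standard error 0.40, FDR = 3.7e-06). Groups did not overlap in either, although the cool libraries differed among themselves. The iron transporter OPT3, the bHLH factor PYE and the ferritin FER3 fell by 1.46, 1.09 and 1.17. Deficiency genes and a ferritin, which stores iron and is known to follow iron supply in the opposite sense, thus fell together. LOX2, a plastid lipoxygenase at the start of jasmonate synthesis, fell from 118, 135 and 155 CPM to 16.6, 20.8 and 10.2 CPM (log2 fold change -3.13, standard error 0.16, FDR = 6.0e-15). AOC2, of a later step, fell by 1.52. These were the 2 calls among 15 jasmonate genes tested (7.69% of all tested genes were called), with a median of -0.15. By the FDR alone 3 were higher and 3 lower (16.9% and 18.8% of all tested genes). The other 13 jasmonate genes tested were not called, with VSP2 higher by the FDR alone at 0.999 (called at 1.75 without 22C replicate 3 and at 1.06 without 28C replicate 1).

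Cold-regulated genes did not move as one list, with 2 of 14 rising and 5 falling (3.47% and 4.22% of all tested genes) and a median of -0.04. KIN1, a cold-induced protective protein, went from 41.1, 55.1 and 36.5 CPM to 10.9, 5.41 and 5.32 CPM (log2 fold change -2.60, standard error 0.21, FDR = 3.4e-11). COR15B and COR15A, plastid proteins that protect membranes in freezing, fell by 2.20 and 1.58 and RD29A by 1.27, COR15A not being called without 22C replicate 2 (-1.24). COR414-TM1 rose from 7.59, 7.68 and 9.34 CPM to 37.3, 28.4 and 27.03 CPM (log2 fold change 1.91, standard error 0.18, FDR = 9.8e-10), and the cold-response regulator CBF2 from 3, 4 and 7 counts to 15, 13 and 13 (log2 fold change 1.48, standard error 0.44, FDR = 0.0091). Under DESeq2 only 1 gene of this list rose, and the call of CBF2 was lost. COR47, KIN2 and ERD10, of the same response, had log2 fold changes of 0.30, -0.046 and -0.04. Among 10 fatty acid desaturases, FAD8, a plastid enzyme known to act at low temperature, fell from 31.4, 21.6 and 23.7 CPM to 10.7, 7.58 and 6.76 CPM (log2 fold change -1.60, standard error 0.19, FDR = 1.2e-07). FAD2, of the endoplasmic reticulum, rose by 1.10, which was not called without 22C replicate 1 (0.99), and ADS1 by 2.03.

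The list with the most falls was that of the cytosolic ribosome. Of 235 ribosomal protein genes tested, 86 fell and none rose (4.22% and 3.47% of all tested genes), with a median of -0.87. By the FDR alone 194 were lower and 6 higher (18.8% and 16.9% of all tested genes). In fits of 5 libraries 1 of them rose without 22C replicate 2, 2 without 28C replicate 1 and 1 without 28C replicate 3. The summed level of all 263 listed genes, tested or not, was 71469, 71657 and 72689 CPM at 22°C and 39030, 37318 and 37958 CPM at 28°C. The 22°C libraries agreed closely and none came near a 28°C library. AT3G60245, a zinc-binding ribosomal protein, went from 1090.5, 1039.6 and 1076 CPM to 413, 374 and 398 CPM (log2 fold change -1.43, standard error 0.08, FDR = 2.2e-14). RPS6 (AT4G31700), of the small subunit and a known target of growth signalling, had 598, 634 and 625 CPM and then 235, 222 and 245 CPM (log2 fold change -1.40, standard error 0.08, FDR = 8.3e-14). Both were lower in every warm library. Ribosomal proteins are coded by families of near-identical genes, so single members are uncertain and the sum is the firmer value.

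Nucleolar genes, which process ribosomal RNA, went with them: 13 of 13 tested had negative log2 fold changes, with a median of -0.70. By the FDR alone 9 were lower and 4 fell by at least 2-fold (18.8% and 4.22% of all tested genes). FIB2, a fibrillarin of the methylation of ribosomal RNA, went from 62.5, 53.7 and 45.6 CPM to 19.6, 12.7 and 11.3 CPM (log2 fold change -1.88, standard error 0.17, FDR = 2.9e-10). NAP57, of pseudouridylation, fell by 1.28, AT3G15460 by 1.09 and NOP56 by 1.04, the last not called without 28C replicate 2 (-0.96). AT5G60390, a translation elongation factor of the EF-Tu family with near-identical copies, lost many counts, from 2021, 2324 and 2360.0 CPM to 926, 1007 and 1093 CPM (log2 fold change -1.15, standard error 0.08, FDR = 2.0e-12). AT3G12965, annotated as other RNA, went from 1388, 1823 and 1764 CPM to 673, 622 and 660.5 CPM (log2 fold change -1.35, standard error 0.09, FDR = 7.0e-13). Neither gene had overlapping groups.

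The promoters of AT5G60390 and AT3G12965 are printed for the telo-box AAACCCTA, the motif in largest excess among genes that fell. Of the named genes that fell and hold it, these 2 lost the most CPM. Both also hold the site II element TGGGCC, and these 2 of the 6 motifs searched were the most frequent in ribosomal protein promoters. The printed promoters are the 250 bases before the start in TAIR10.1, 5′ to 3′ on the strand of the gene, at chr5:24288346-24288595 on the plus strand and chr3:4137675-4137924 on the minus strand, with either motif on either strand in capitals. The first has a telo-box 240 bases and a site II element 41 bases before the start. The second has a site II element 71 bases before it and a telo-box that begins 5 bases before the start and runs past the end of the window, which is left in lower case.
AT5G60390: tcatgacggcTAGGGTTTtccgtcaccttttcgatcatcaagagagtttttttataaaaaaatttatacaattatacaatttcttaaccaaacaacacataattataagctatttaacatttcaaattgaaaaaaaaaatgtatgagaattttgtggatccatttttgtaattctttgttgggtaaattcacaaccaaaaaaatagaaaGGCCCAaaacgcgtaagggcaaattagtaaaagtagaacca
AT3G12965: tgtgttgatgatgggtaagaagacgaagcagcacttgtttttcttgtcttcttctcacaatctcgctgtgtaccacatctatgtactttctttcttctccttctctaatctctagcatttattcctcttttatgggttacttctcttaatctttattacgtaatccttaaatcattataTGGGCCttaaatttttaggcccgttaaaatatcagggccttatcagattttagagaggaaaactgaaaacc
The capitals mark letters only.

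Of 38 histones and histone-fold proteins, 26 were lower by the FDR alone (18.8% of all tested genes), with a median of -0.54. Of the 38, 4 fell and 1 rose (4.22% and 3.47% of all tested genes). The riser was HIS1-3, a linker histone known from drought, which went from 93, 86 and 86 counts to 347, 317 and 375 (log2 fold change 1.92, standard error 0.13, FDR = 1.2e-12), with every warm library higher. The 4 that fell lay between -1.001 and -1.41, and without 22C replicate 2, 22C replicate 3 or 28C replicate 3 only 2, 2 and 1 genes of the list fell. The 13 cell division genes tested had a median of -0.11, and CYCB1;1, a mitotic cyclin, was the one that fell, by 1.15 (FDR = 0.0046), which was lost after thinning of the counts.

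Several antenna proteins, which bind chlorophyll and gather light, were higher. LHCB1.5 (AT2G34420), of the antenna of photosystem II, had 5838, 5845 and 4585 CPM at 22°C and 16346, 14184 and 14259 CPM at 28°C (log2 fold change 1.46, standard error 0.08, FDR = 3.3e-14). LHCA4 (AT3G47470), of the antenna of photosystem I, went from 4133, 4070.0 and 3526 CPM to 8812, 8159 and 8028 CPM (log2 fold change 1.09, standard error 0.07, FDR = 7.0e-13). The warm libraries of both were all above the cool ones. LHCA1, LHCB2.1 and LHCB2.2 rose by 1.01, 1.06 and 1.11, close to the 2-fold limit, and each lost its call without 22C replicate 3 (log2 fold changes of 0.98, 0.94 and 0.95). LHCA1 also lost it without 22C replicate 1 or 28C replicate 3 (0.98 and 1.00) and LHCB2.1 without 28C replicate 1 (0.96). LHCB1.5, LHCB2.1 and LHCB2.2 have near-identical relatives, so their values are less certain than that of LHCA4. Of all 48 photosystem and antenna genes tested 5 rose (2 without 22C replicate 3) and 2 fell, against 3.47% and 4.22% of all tested genes, so that the share that fell is near the background. By the FDR alone 26 were higher and 9 lower, against 16.9% and 18.8% of all tested genes, and the median was 0.27. The summed level of all 49 listed genes, tested or not, was between 132037 and 141660 CPM at 22°C and between 175314 and 190078 CPM at 28°C.

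The promoter of LHCA4 is printed for its G-box CACGTG, the main PIF binding sequence, which lies 88 bases before the start and is in capitals. It spans chr3:17495034-17495283 on the minus strand of TAIR10.1 and is given 5′ to 3′ on the strand of the gene.
LHCA4: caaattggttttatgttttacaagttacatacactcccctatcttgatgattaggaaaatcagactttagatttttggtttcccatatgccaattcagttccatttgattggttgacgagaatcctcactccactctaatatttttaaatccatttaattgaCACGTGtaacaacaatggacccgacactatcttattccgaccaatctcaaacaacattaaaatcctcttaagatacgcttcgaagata

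Photosystem genes that fell were PSB28, of photosystem II assembly, by 1.29, and LHCB4.3, an antenna gene known to rise in strong light, from 63.6, 59.5 and 58.6 CPM to 21.3, 12.4 and 16.4 CPM (log2 fold change -1.84, standard error 0.15, FDR = 3.5e-11). ELIP2, an early light-induced protein of photoprotection, fell from 39.8, 23.0 and 25.8 CPM to 2.40, 2.16 and 2.46 CPM (log2 fold change -3.62, standard error 0.25, FDR = 3.3e-12) and ELIP1 from 24.6, 27.9 and 30.2 CPM to 4.79, 0.541 and 3.07 CPM (log2 fold change -3.22, standard error 0.26, FDR = 6.9e-11). ELIPs and LHCB4.3 had cool and warm groups far apart. RBCS1B, of the small subunit of Rubisco, the carbon-fixing enzyme, fell from 1467, 1574 and 1815 CPM to 531, 628 and 555 CPM (log2 fold change -1.503, standard error 0.08, FDR = 6.3e-14). RBCS1A, of the same subunit, was lower by the FDR alone at -0.90, and both are from a family of near-identical copies. The summed level of 8 leaf mesophyll markers, which are mostly Rubisco and antenna genes, was between 51654 and 54446 CPM at 22°C and between 38863 and 42937 CPM at 28°C. Of these 8, 7 had negative log2 fold changes and 1 a positive one, at 0.68. By the FDR alone 5 were lower and 1 higher (18.8% and 16.9% of all tested genes). CAB1, CAB2 and CAB3 of this list are antenna genes, so antenna genes were not all higher. LHCB1.5 and RBCS1B moved in opposite directions. Of 13 chlorophyll synthesis genes only PORA, a protochlorophyllide reductase known from darkness, was called (7.69% of all tested genes were). It fell from 2.62, 3.02 and 3.69 CPM to 0.436, 1.89 and 0 CPM (log2 fold change -2.14, standard error 0.58, FDR = 0.0043). In 28C replicates 1 and 3 it was under the floor of 3 counts, so the size of its fold change is uncertain.

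Aquaporins, the water channels of cell membranes, gave 5 rises and no fall among 28 tested (3.47% and 4.22% of all tested genes), with a median of 0.38. The summed level of all 35 listed, tested or not, went from between 8877 and 9646 CPM to between 16743 and 17423 CPM. TIP2;1, of the vacuole membrane, went from 1272, 1558 and 1511 CPM to 3410.5, 3745 and 3862 CPM (log2 fold change 1.34, standard error 0.08, FDR = 1.1e-13). PIP2;1, of the plasma membrane, went from 806, 758 and 839 CPM to 1907, 1556 and 1690.0 CPM (log2 fold change 1.10, standard error 0.08, FDR = 5.9e-12). Each warm library exceeded each cool one. PIP1;3 and PIP2;7 rose by 1.06 and 1.04, PIP2;7 losing its call without 22C replicate 1 or 28C replicate 3 (0.95 and 1.00). Without 28C replicate 1, 2 aquaporins fell. The fifth, TIP3;1, is a channel of seed vacuoles and had 1, 1 and 0 counts at 22°C and 34, 15 and 18 at 28°C.

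**Figure D3:**
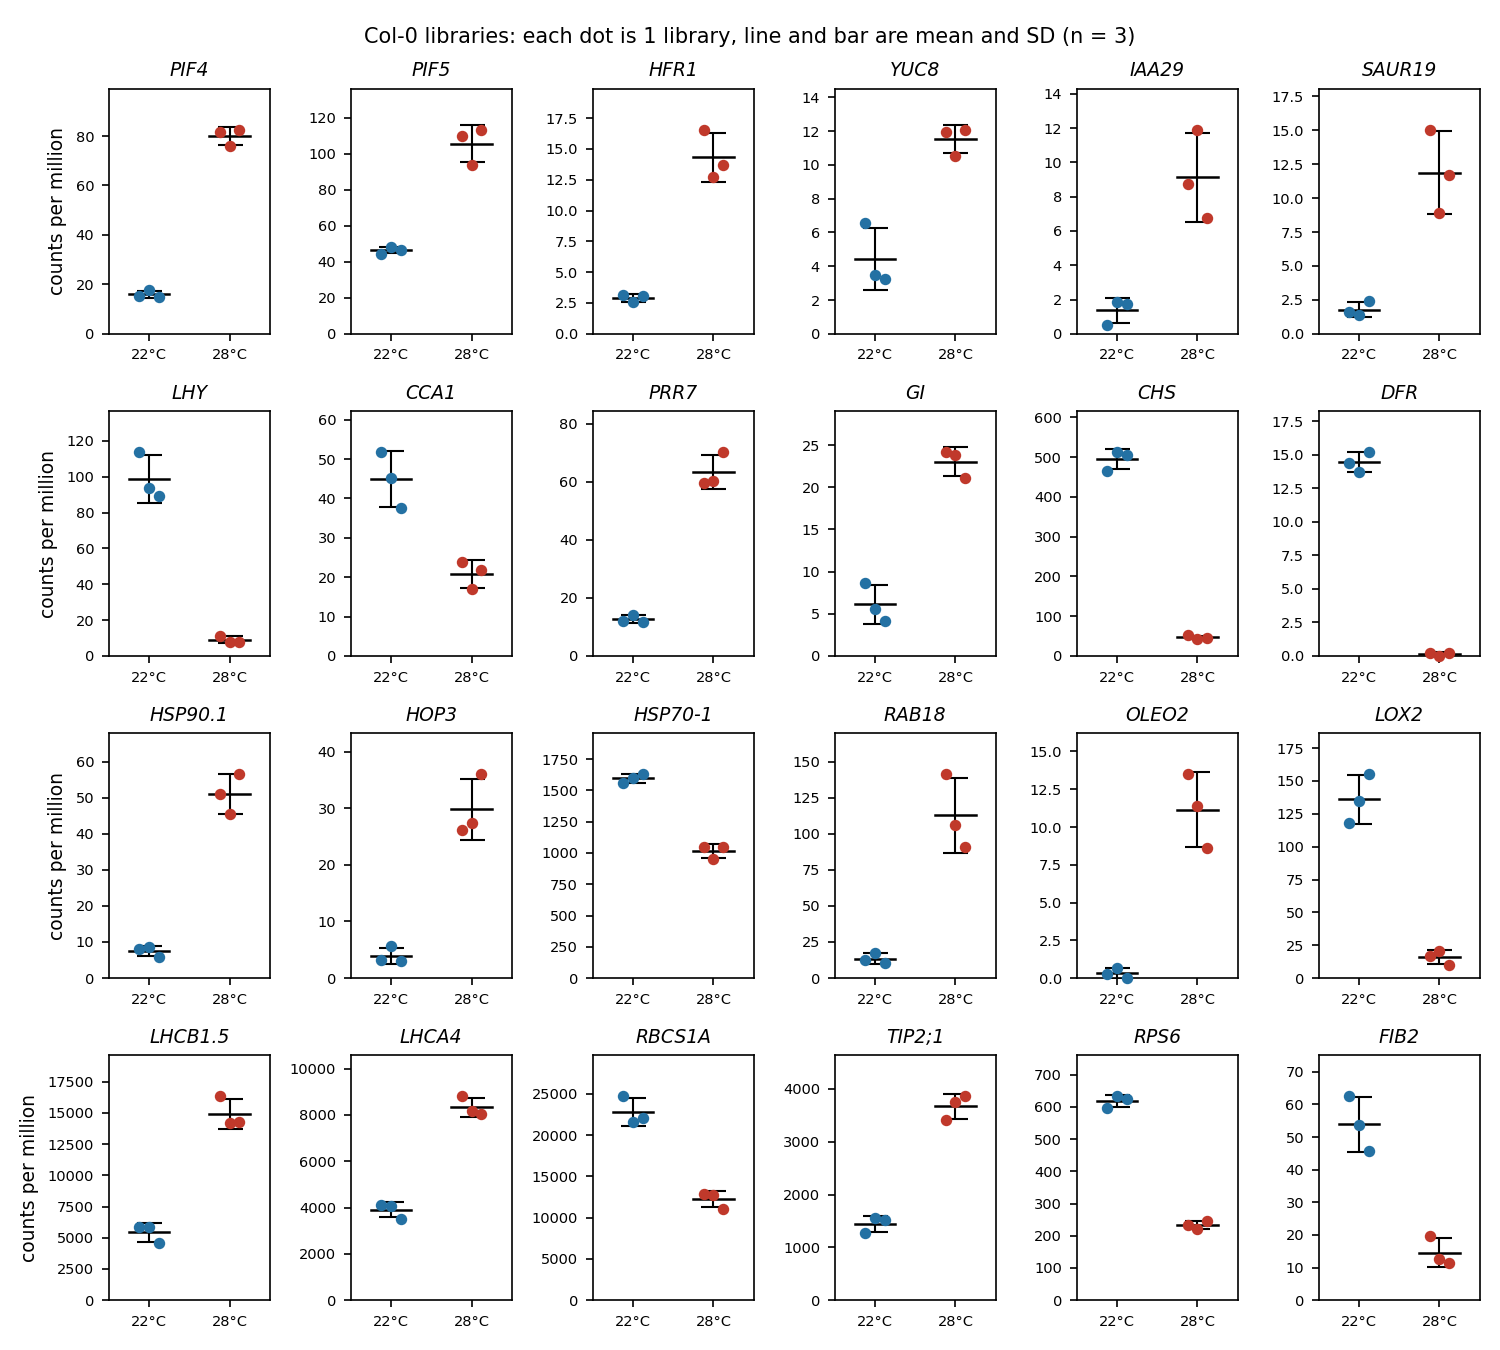
CPM of 24 genes in each of the 6 libraries, 1 panel per gene on its own linear axis from 0, with a dot for each library and a line and error bar for the mean and SD of each group of 3. In PIF4, HSP90.1 and LHCB1.5 the 28°C points lie above all 22°C points, and in LHY, CHS and FIB2 below them.

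Genes of low energy gave 3 rises and 1 fall among 15 tested (3.47% and 4.22% of all tested genes), with a median of 0.42. ASN1 (AT3G47340), an asparagine synthetase known to rise in the dark and under sugar starvation, went from 133, 85.8 and 136 CPM to 371, 485 and 531 CPM (log2 fold change 1.96, standard error 0.13, FDR = 1.2e-12). SEN1 (dark-inducible) rose by 1.30 and DIN10, of the raffinose synthase family, by 1.01, and BAM3, a β-amylase of starch breakdown, fell by 1.38. ASN1 was higher in every warm library, and the call of DIN10 was lost without 22C replicate 2 or 28C replicate 3 (0.90 and 0.89). The promoter of ASN1 is printed as a second gene with a G-box, from the minus strand at chr3:17441432-17441681 of TAIR10.1. Its capitals are a G-box 167 bases and a telo-box 76 bases before the start.
ASN1: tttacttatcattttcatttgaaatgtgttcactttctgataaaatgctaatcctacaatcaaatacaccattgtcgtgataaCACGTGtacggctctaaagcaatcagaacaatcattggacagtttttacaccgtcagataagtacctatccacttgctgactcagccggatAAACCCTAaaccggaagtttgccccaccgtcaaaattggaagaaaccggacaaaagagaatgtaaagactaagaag
Of the 941 tested genes with a telo-box from 250 bases before to 50 after the start, 94 fell and 8 rose (4.22% and 3.47% of all tested genes). ASN1 was among those that rose.

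Late embryogenesis abundant (LEA) proteins and dehydrins, which protect dry or freezing cells and are known from maturing seeds and from drought, held many of the largest rises. In a list drawn up from the annotation after values had been seen, 14 of 28 tested rose and 2 fell (3.47% and 4.22% of all tested genes), with a median of 1.32. By the FDR alone 17 were higher and 5 lower (16.9% and 18.8% of all tested genes). The summed level of all 47 listed, tested or not, differed less, between 2488.5 and 2566.8 CPM at 22°C and between 2724.5 and 2862.2 CPM at 28°C. RAB18 (AT5G66400), a dehydrin induced by abscisic acid, had 12.6, 17.7 and 10.2 CPM at 22°C and 141, 106 and 91.1 CPM at 28°C (log2 fold change 3.06, standard error 0.17, FDR = 3.6e-14). AT3G17520 went from 1.31, 3.02 and 2.39 CPM to 39.2, 32.7 and 22.7 CPM (log2 fold change 3.77, standard error 0.26, FDR = 2.4e-12) and LEA18 from 6.02, 6.74 and 5.43 CPM to 77.3, 54.9 and 46.9 CPM (log2 fold change 3.297, standard error 0.19, FDR = 1.2e-13). All 28°C libraries were above all 22°C libraries, and 28C replicate 1 was the highest. PER1, a peroxiredoxin known from seeds, rose from 0.785, 2.09 and 1.95 CPM to 43.1, 32.2 and 23.55 CPM (log2 fold change 4.30, standard error 0.28, FDR = 1.2e-12), the largest rise of the genes named by size. LTI30 and LEA3 of the same list fell by 1.34 and 1.06.

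Markers of seed tissue moved with these genes. OLEO2, an oleosin of seed oil bodies, had 1, 3 and 0 counts at 22°C and 62, 42 and 42 at 28°C (log2 fold change 5.02, standard error 0.46, FDR = 7.5e-10), and CRA1, a seed storage cruciferin, 1, 0 and 3 and 67, 23 and 18 (log2 fold change 4.58, standard error 0.63, FDR = 1.1e-06). Both were highest in 28C replicate 1. Their 22°C counts were at or under the floor of 3, so the sizes of their fold changes are uncertain. The other 7 of the 9 markers were too low to be tested, and the summed level of all 9 was 1.0, 0.7 and 3.0 CPM at 22°C and 49.2, 20.6 and 14.1 CPM at 28°C. At 22°C the storage genes CRU3, SESA1 and SESA2 were at 0 in every library, and at 28°C they had 21, 27 and 15 counts in replicate 1, 0, 1 and 1 in replicate 2 and 3, 0 and 0 in replicate 3. Without 28C replicate 1 the log2 fold changes were 4.05 for PER1, 3.58 for AT3G17520, 3.07 for LEA18, 2.87 for RAB18, 4.86 for OLEO2 and 3.83 for CRA1, all still called, and 15 LEA genes rose. The part of seed tissue in these results was not tested.

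Several of the largest changes lay outside the lists, since 1075 of the 1315 changed genes were in none. GolS1, a galactinol synthase known from heat and drought, went from 3.14, 2.33 and 2.17 CPM to 30.5, 27.1 and 32.6 CPM (log2 fold change 3.57, standard error 0.21, FDR = 2.1e-13). AT3G55240, of unknown function, went from 5.23, 3.02 and 3.26 CPM to 32.9, 34.9 and 31.1 CPM (log2 fold change 3.11, standard error 0.20, FDR = 7.0e-13). Groups did not overlap in either. AT2G15880, a leucine-rich repeat protein, rose by 3.06, and a thioredoxin-dependent peroxidase, TPX2 (AT1G65970), by 2.81, with near-identical relatives. By gain of counts CP5, of a lipid-transport family, went from 1114, 1068 and 1151 CPM to 3271, 3689.7 and 4383 CPM (log2 fold change 1.77, standard error 0.08, FDR = 2.0e-15) and the glycine-rich protein AT2G05540 from 315, 246 and 252 CPM to 877, 865 and 975 CPM (log2 fold change 1.74, standard error 0.09, FDR = 1.2e-14). Both rose in every library.

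Among the falls, AT3G05730, a defensin-like protein, went from 1361, 1469.5 and 1238 CPM to 334, 245 and 278 CPM (log2 fold change -2.25, standard error 0.10, FDR = 1.9e-16). OEP6, of the outer plastid envelope, went from 1321, 1282 and 1264 CPM to 310.2, 283 and 229.6 CPM (log2 fold change -2.23, standard error 0.09, FDR = 8.0e-17) and the glycine-rich protein GRP-3 from 1995, 1896 and 1939 CPM to 742, 633 and 722 CPM (log2 fold change -1.47, standard error 0.08, FDR = 1.2e-14). No warm library of these 3 genes reached a cool one. AT3G60750, a transketolase of the Calvin cycle, fell by 1.13, and PRXQ, a plastid peroxiredoxin, and GER1 (AT1G72610), a germin-like protein, by 1.01 and 1.04. PRXQ lost its call without 22C replicate 3 or 28C replicate 1 (-0.95 in both) and GER1 without 22C replicate 3 or 28C replicate 3 (-1 after rounding and -0.94). AT2G27402, annotated as plastid transcriptionally active, fell by 3.02 and the glycosyltransferase AT1G06000 by 2.64. ACT7, an actin often used for scaling, had a log2 fold change of 0.20 (FDR = 0.057). None of 10 antioxidant enzymes was called (7.69% of all tested genes were), with a median of 0.15.

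Promoter motifs were counted in all 17088 tested genes with a RefSeq promoter (4 had none), in a window from 250 bases before to 50 after the start and on both strands. The G-box CACGTG was in 9.09% of all promoters, 15.9% of those of genes that rose and 8.46% of those of genes that fell. The PBE-box CACATG was in 12.7%, 17% and 11.4%, and the evening element AAAATATCT, known from clock-controlled genes, in 3.1%, 4.55% and 4.02%. The site II element TGGGCC was in 19.9%, 11.1% and 23.3%, and the telo-box AAACCCTA in 5.51%, 1.35% and 13%. The heat shock element GAANNTTC, which is the same on both strands, was in 10.9%, 12% and 11.1%. Relative to all promoters, the largest excess was that of the G-box among genes that rose, at 1.75 times, and of the telo-box among genes that fell, at 2.36 times. Among genes that rose the telo-box and the site II element were at 0.245 and 0.558 times their share of all promoters. These are descriptions with no test.

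The lists held motifs at their own rates. Of the 235 ribosomal protein promoters 59.1% had the site II element and 39.6% the telo-box, and of the 13 nucleolar ones 61.5% and 46.2%, the pair of motifs shown in AT5G60390 and AT3G12965. The PBE-box of YUC8 was in 48.9% of 45 SAUR promoters. The G-box of LHCA4 was in 37.5% of 48 photosystem promoters, 50% of 14 flavonoid promoters, 45.8% of 24 clock promoters and 42.9% of 28 LEA promoters. The evening element was in 25% of the clock promoters. The heat shock element was in 27.8% of 18 heat shock protein promoters.

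**Figure D4:**
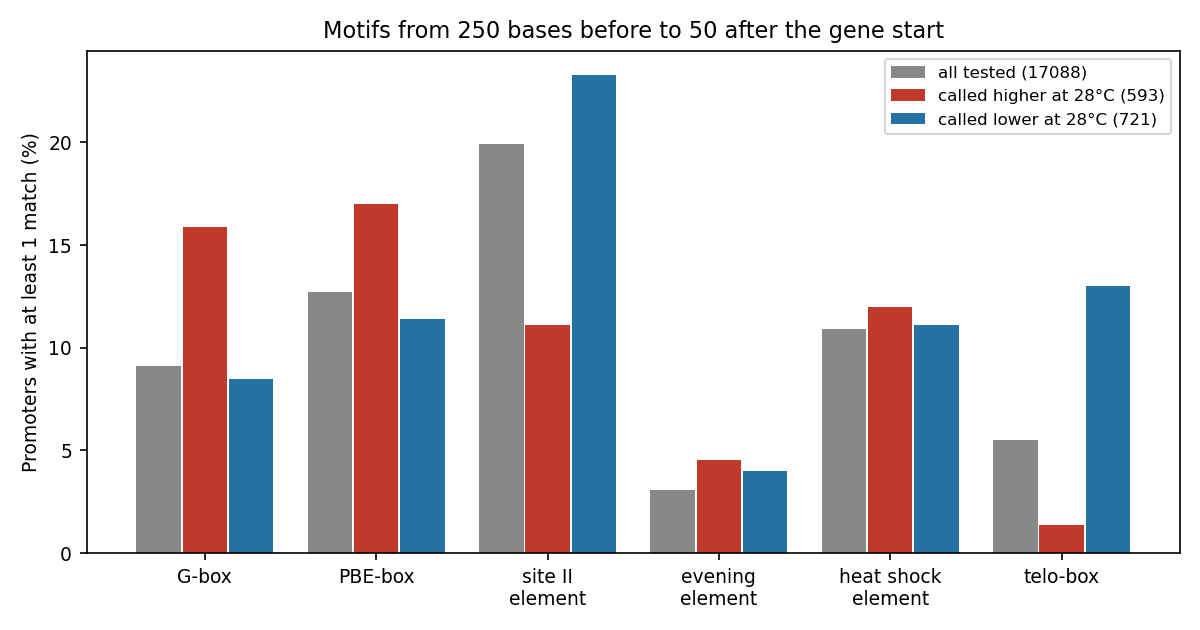
Percent of promoters with each of 6 motifs (vertical axis, from 0) for all tested genes, genes that rose and genes that fell at 28°C. The telo-box goes from 5.51% of all promoters to 13% in genes that fell and 1.35% in genes that rose, and the G-box from 9.09% to 15.9% in genes that rose.

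The Col-0 response was last set against that of the mutants in a model of all 18 libraries with 18078 genes tested, in which the interaction of temperature and genotype is the difference between responses. The libraries labelled hec1hec2 had HEC1 counts of 3308, 3289 and 3282 at 22°C and 2691, 3271 and 2818 at 28°C, far above the 33 to 68 counts of Col-0. The HEC1 count thus does not show the loss that the label gives. A count of 3′ ends does not tell whether the transcript is functional, and the cause was not tested. HEC2 had 0 counts at 22°C in all 3 of them and 6, 2 and 4 at 28°C. In pifQ, PIF3 had 4, 4 and 5 counts at 22°C and 6, 6 and 1 at 28°C, and PIF5 had 7, 7 and 12 and then 4, 3 and 9. PIF1 had 66, 66 and 69 counts at 22°C and 90, 97 and 92 at 28°C in pifQ, above the 42, 50 and 53 and the 59, 59 and 71 of Col-0. PIF4 had 95, 60 and 109 counts and then 523, 404 and 482 in pifQ, against 59, 76 and 69 and then 374, 281 and 403 in Col-0, so the counts of PIF1 and PIF4 do not mark the mutant. pifQ 22C replicate 2 stood apart, with 41.17% of its counts on chromosome 1 and 10.06% on chromosome 5 where the other 17 libraries had 29.1% to 30.1% and 19.3% to 20.6%. The interaction passed an FDR of 0.05 for 3 genes in the libraries labelled hec1hec2 (0.0166%) and 11 in pifQ (0.0608%), and without pifQ 22C replicate 2 for 38 and 29.

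Among the 1315 genes changed in Col-0, 2 differed in the libraries labelled hec1hec2 and 6 in pifQ (13 and 12 without that replicate). IAA14, which rose by 1.05 in Col-0, had 19.6, 18.16 and 16.8 CPM in pifQ at 22°C and 20.8, 18.3 and 16.2 CPM at 28°C. Its groups overlapped in pifQ and not in Col-0. The FDR of this interaction was 0.0498, at the limit, and 0.0161 without pifQ 22C replicate 2. It was 0.0684 with the replicate block, 0.0655 with RLE normalization and 0.0572 with a filter at 1 CPM. With any one Col-0 library left out it was between 0.0856 and 0.187. AT3G55240 had 4.81, 4.93 and 4.38 CPM in pifQ at 22°C and 8.58, 11.4 and 5.39 CPM at 28°C, a smaller difference than in Col-0. Beyond these 2 and 6 the genes changed in Col-0 did not pass this test, which does not show that they respond alike.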

How the data were processed

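RNA of whole seedlings was read by 3′ Tag-Seq. The authors checked reads with FastQC, aligned them with TopHat and Bowtie2 to TAIR10 and deposited raw counts per gene from HTSeq, not normalized. Program versions, the strand setting and the treatment of duplicates are not given in the sources used here, so genes that overlap, lie antisense or have near-identical copies are counted with less certainty. No molecular identifiers are described, so floors cover counting error only.

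The 6 Col-0 libraries, of 3631558 to 4763859 counts, were fitted with edgeR version 4.0.16 in R version 4.3.3 (TMM normalization, filterByExpr, quasi-likelihood test, Benjamini-Hochberg FDR). The common dispersion was 0.00733, a biological coefficient of variation of 0.0856. Interactions with the mutants came from a model of all 18 libraries. The fit was tested on simulated data. The members and gene lists were chosen with earlier results of these data known. Named genes were, among changed genes with a mean of at least 10 CPM and groups that did not overlap, the 10 largest rises and falls in fold and in CPM, the up to 4 list members with the largest change or a defining role, and the genes named for expression in the study. Other list members named in the text, such as CCA1, GI, RPS6 and HSP90.2, were chosen after their values were seen, as were the LEA and extensin-like lists. Promoters and gene names came from RefSeq TAIR10.1. Alternatives were other normalizations (RLE, upper quartile, total count), filters, models, DESeq2 version 1.42.0, edgeR's exact test, a replicate block, thinned counts, a test against 1.2-fold and each library left out.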

Additional observations from a re-analysis of the deposited data

Results flagged for a closer look

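By the interaction test of edgeR's quasi-likelihood model of 18 libraries, 2 of the genes changed in Col-0 had a response to temperature that differed in the libraries labelled hec1hec2 and 6 in pifQ. Up to 3 for each mutant, those with the lowest FDR, are described here. In the libraries labelled hec1hec2, whose HEC1 counts do not show the loss that the label gives, CCL had a log2 response of 2.36 against 1.08 in Col-0. The difference was 1.28 (FDR = 0.00014). It had 118, 125 and 132 CPM at 22°C and 719, 573 and 624 CPM at 28°C there, and 243, 261 and 273 CPM and then 534, 551 and 554 CPM in Col-0. The lower level at 22°C separates these groups more than the level at 28°C. AT5G23240, annotated as a DNAJ domain protein, fell in Col-0 (-1.42) and rose in the libraries labelled hec1hec2 (1.36), a difference of 2.78 (FDR = 0.00056).

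In pifQ, AT5G02540, a Rossmann-fold protein, had a log2 response of -0.39 against 2.61 in Col-0, a difference of -2.998 (FDR = 0.0021). It had 2.30, 2.73 and 3.39 CPM at 22°C and 21.1, 15.1 and 16.0 CPM at 28°C in Col-0, and between 2.24 and 4.84 CPM in every pifQ library. AT1G12080 had -0.03 against 2.03, a difference of -2.05 (FDR = 0.0052), and AT3G55240 had 0.84 against 3.14, a difference of -2.30 (FDR = 0.0052). Without pifQ 22C replicate 2, the library that stands apart, the differences were 1.28, 2.78, -3.03, -1.70 and -2.27 in the order given, with FDRs of 2.8e-07, 1.2e-05, 0.00041, 0.00033 and 0.0036. These 5 passed an FDR of 0.05 in every alternative run, and of the other 3 in pifQ, AT2G14900 (-1.57, FDR = 0.0486), IAA14 (-1.06, FDR = 0.0498) and AT5G12050 (-1.72, FDR = 0.0132), each missed it in some.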

How the results depend on the processing

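The counts of 593 genes that rose and 722 that fell were within 1.5 times under every normalization, filter, model and tool tried except 2 changes of the call rule: 1671 rose and 2082 fell in a test against 1.2-fold without the 2-fold limit, and 2881 and 3217 differed by the FDR alone. Leaving out each library in turn gave 589 to 652 rises and 683 to 875 falls. Between 1089 and 1315 of the 1315 changed genes were called in the same direction and none in the opposite one. Total-count scaling gave 702 rises and 606 falls (53.7% of calls higher, against 45.1%). Interactions depended more on the settings. For the libraries labelled hec1hec2, 3 genes became 38 without pifQ 22C replicate 2 and 6 with the replicate block, and 3 to 4 without a Col-0 library, and 2 became 13 among genes changed in Col-0. For pifQ, 11 became 29 without that replicate, 5 with RLE scaling, 6 with the replicate block, 7 with a filter at 1 CPM and 3 to 9 without a Col-0 library, and 6 became 12 without that replicate and 3 to 5 without a Col-0 library among genes changed in Col-0. The cause was not tested. Replicate numbers did not pair the Col-0 libraries (correlations of deviations of 0.10, -0.01 and 0.07), and the replicate block gave 599 rises and 725 falls. Of 131 named genes called, 24 lost the call in at least one alternative, most of them within 0.1 of the 2-fold limit on the log2 scale. At this depth, genes of a few counts could not be tested, HEC2, HEC3, PIL1 and FT among them.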

Other observations

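THA1 and KAT5, outside the lists and chosen after their values were seen, had changes of the size of many list members. THA1 (AT1G08630), a threonine aldolase, had 22.5, 10.2 and 33.0 CPM at 22°C and 79.7, 119.8 and 127 CPM at 28°C (log2 fold change 2.30, standard error 0.21, FDR = 4.6e-10), higher in every warm library although the cool libraries spread widely. KAT5 (AT5G48880), a thiolase, went from 52.3, 52.8 and 59.1 CPM to 14.2, 16.2 and 15.8 CPM (log2 fold change -1.83, standard error 0.13, FDR = 8.1e-12), lower in every warm library. Calls were spread over the genome, with between 3.23% and 3.82% of the tested genes of each of the 5 chromosomes rising and between 3.59% and 4.99% falling.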
